A study of Homo sapiens with 6 samples.

Results

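Matrix metalloproteinases (MMPs) are secreted or membrane-bound zinc endopeptidases that cut collagens and other components of the extracellular matrix, and most of them are made as inactive precursors. Tissue inhibitors of metalloproteinases (TIMPs) bind and block the active enzymes, and RECK is a membrane-anchored inhibitor of several of them. Hepatic stellate cells (HSCs), the main matrix-producing cells of the injured liver, are known for making both the enzymes and the inhibitors. The 10 genes described here were 6 MMPs (MMP1, MMP2, MMP3, MMP9, MMP10 and MMP14), 3 TIMPs (TIMP1, TIMP2 and TIMP3) and RECK. They were chosen by symbol, with the measured log2 fold changes and p-values of this comparison in view, from the 60605 Ensembl genes of the count table, and each symbol matched 1 gene. The differences below describe these libraries and are no independent evidence.

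RNA was sequenced from LX-2, an established human HSC line, kept for 24 h in conditioned medium (CM) of HCT116, an established human colorectal carcinoma line. The HCT116 cells had been transduced with lentivirus and selected with puromycin, carrying either an empty vector (Vector-CM, n = 3 libraries) or FGFBP1 (FGFBP1-CM, n = 3). FGFBP1 is a secreted protein that releases fibroblast growth factors from the matrix. LX-2 carried no vector in either group and was grown in DMEM with fetal bovine serum, and HCT116 cells and LX-2 in unconditioned medium were not analysed here. The labels do not say whether the 3 libraries of a group came from separate cultures, so the p-values measure the spread between these samples, which may be technical. The libraries held between 14003780 and 18508113 counts.

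LX-2 carried much of the stellate marker list, with VIM at 2591 CPM (counts scaled to library size) and SPARC at 518 CPM in Vector-CM. Other stellate genes were nearly absent: LRAT, the enzyme of retinoid storage, had 0 counts in all 6 libraries, and desmin (DES), an intermediate filament protein, averaged under 0.2 CPM in each group. FGFBP1-CM replicate 1 stood apart from the other 2 libraries of its group (chi-square per degree of freedom 10.2 and 9.41, against 4.83 between replicates 2 and 3), and values without it are given beside the members. In these bulk libraries, fewer cells of a type and less RNA per cell cannot be told apart.

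By GENCODE release 29 on GRCh38, matched by Ensembl identifier, MMP9 (ENSG00000100985) lies at chr20:46008908-46016561 on the plus strand in 13 exon blocks. MMP1 (ENSG00000196611, chr11:102789920-102798160), MMP3 (ENSG00000149968, chr11:102835801-102843803) and MMP10 (ENSG00000166670, chr11:102770503-102780628) are neighbours on the minus strand of chromosome 11. TIMP1 (ENSG00000102265, chrX:47582313-47586789, plus) lies within the span of SYN1, and TIMP3 (ENSG00000100234, chr22:32801701-32863043, plus) within that of SYN3, in both cases on the opposite strand and with no shared exon base. The remaining members are MMP2 (ENSG00000087245, chr16:55389700-55506691, plus), MMP14 (ENSG00000157227, chr14:22836557-22849027, plus), TIMP2 (ENSG00000035862, chr17:78852977-78925387, minus) and RECK (ENSG00000122707, chr9:36036433-36124451, plus).

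RefSeq promoter sequence (GRCh38.p14) was matched for 5 of the 10 members, MMP10, MMP14, TIMP1, TIMP3 and RECK, and not for MMP1, MMP2, MMP3, MMP9 and TIMP2. The 250 bases before each RefSeq start were searched on both strands for the AP-1 site TGANTCA, the TATA box TATAAA, the GC box GGGCGG and the EGR1 core GCGNGGGCG, whose letters can share bases with a GC box. Of 34943 promoters, 6.59% held the AP-1 letters, 10.8% the TATA box, 42.5% the GC box and 8.39% the EGR1 core. MMP10 had 1 AP-1 match 67 bases before its RefSeq start and 1 TATA box 31 bases before it, and no GC box. The other 4 held neither of those but had GC boxes, 5 in TIMP3, 3 in RECK, 2 in TIMP1 and 1 in MMP14, and no EGR1 core was found in any of the 5. The RefSeq starts differ from the GENCODE starts given above except in MMP10, so the searched windows of MMP14, TIMP1 and TIMP3 ended inside the GENCODE gene and that of RECK (chr9:36036663-36036912) lay wholly within it. The promoters of 3 members are shown 5′ to 3′ on the strand of the gene, each cut before its first exon base in GENCODE, to set a stromelysin beside 2 inhibitors: MMP10 (chr11:102780629-102780878, minus), TIMP1 (chrX:47582186-47582312, plus) and TIMP3 (chr22:32801455-32801700, plus). Capitals mark the AP-1 match and the TATA box in MMP10 and the GC boxes in TIMP1 and TIMP3, of which the one 45 bases before the RefSeq start of TIMP1 lies past its GENCODE start and is not in the stretch shown. A match is a run of letters and was not tested as a binding site.
MMP10: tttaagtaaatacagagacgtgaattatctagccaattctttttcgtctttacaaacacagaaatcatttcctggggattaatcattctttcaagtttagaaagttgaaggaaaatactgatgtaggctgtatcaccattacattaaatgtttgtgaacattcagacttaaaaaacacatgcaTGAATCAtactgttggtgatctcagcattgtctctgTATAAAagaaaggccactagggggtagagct
TIMP1: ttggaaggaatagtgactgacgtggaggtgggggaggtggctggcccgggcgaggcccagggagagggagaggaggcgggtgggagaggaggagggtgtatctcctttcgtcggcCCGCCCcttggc
TIMP3: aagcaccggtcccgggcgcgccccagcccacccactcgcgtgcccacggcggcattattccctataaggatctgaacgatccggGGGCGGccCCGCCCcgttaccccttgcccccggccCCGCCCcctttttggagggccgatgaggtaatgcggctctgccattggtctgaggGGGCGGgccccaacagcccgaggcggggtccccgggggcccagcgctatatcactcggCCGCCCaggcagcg

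The comparison asked how the genes differed between LX-2 in FGFBP1-CM and in Vector-CM. MMP9 was lower in FGFBP1-CM by about 50.3%, TIMP1 was lower by 22.9%, and both passed the threshold of the fit over all 16707 tested genes (adjusted p under 0.05). Of the 9 members tested these were the 2 called, 0 higher and 2 lower, where 0.120% of all tested genes were called, 0.0539% higher and 0.0658% lower. Since the set was drawn up with these values known, nothing is read from that difference. At an unadjusted p under 0.05 there were 2 members higher and 6 lower, beside 11.1% and 10.7% of all tested genes. The median log2 fold change of the 9 members was -0.28, against 0.0032 for all tested genes. The groups did not overlap in CPM for 8 of the 9, beside 26.0% of all tested genes. MMP1 and MMP3 lay above Vector-CM in all 3 FGFBP1-CM libraries, 6 members lay below it in all 3, and RECK overlapped, where 12.8% of tested genes did not overlap upwards and 13.2% downwards.

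**Figure D1:**
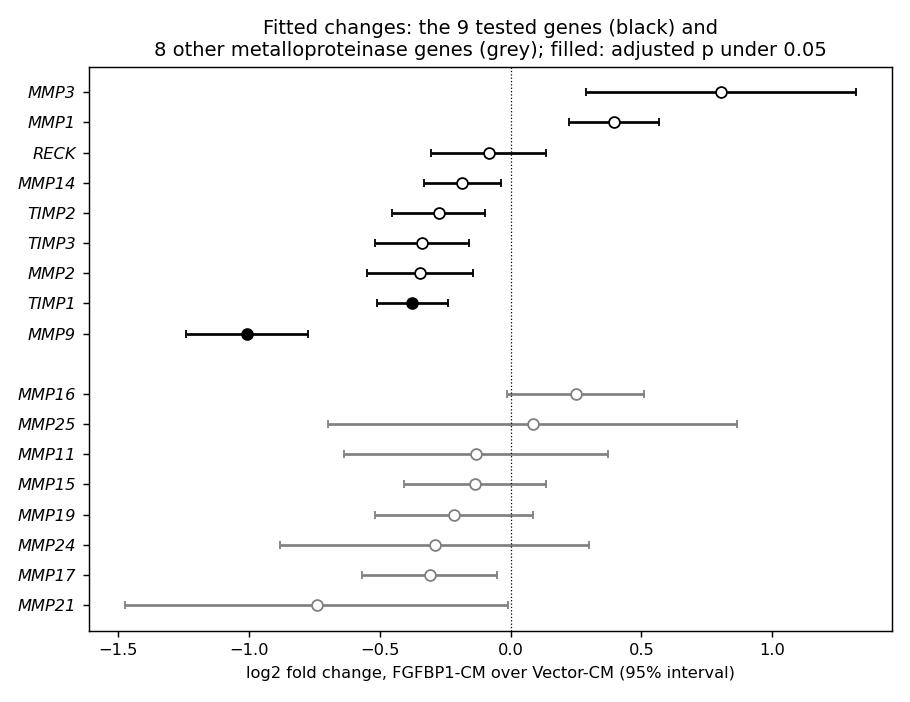
Log2 fold change of the 9 tested members (black) and 8 other metalloproteinase family genes (grey), FGFBP1-CM against Vector-CM, with 95% intervals from the edgeR fit over 16707 genes (n = 3 libraries per group). Symbols are filled where the adjusted p is under 0.05. Of the members, MMP3 and MMP1 stand right of 0, MMP9 lies farthest left at -1.01, and the interval of RECK spans 0.

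Of the gelatinases, which digest denatured collagen and type IV collagen, MMP9 showed the largest difference of the 9 members. Its level in Vector-CM was 36.6, 31.3 and 29.04 CPM, and in FGFBP1-CM it was 14.6, 17.9 and 15.9 CPM. Every FGFBP1-CM library therefore lay well below every Vector-CM library, with replicate 1 the lowest. The means were 32.3 ± 3.90 and 16.1 ± 1.65 CPM (SD, n = 3 each), a log2 fold change of -1.01 (SE 0.109, 95% interval -1.24 to -0.77, edgeR adjusted p = 0.00195). MMP9 was number 3 of the 16707 genes by p and number 36 by lowest log2 fold change. Without FGFBP1-CM replicate 1 the log2 fold change was -0.94, and the call stood in each of the 6 fits that left out 1 library. It was not called by limma on log2(FPKM + 1), with an adjusted p of 0.143, or on log2(FPKM + 0.1), with 0.0644.

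MMP2, the other gelatinase, is activated at the cell surface. It measured 38.8, 42.4 and 37.7 CPM in the Vector-CM libraries and 27.6, 35.3 and 30.8 CPM in FGFBP1-CM. The groups did not overlap, although FGFBP1-CM replicate 2 came close to the lowest Vector-CM library. At a log2 fold change of -0.35 (SE 0.0934) the edgeR adjusted p was 0.0830, above the threshold. Without FGFBP1-CM replicate 2 it passed, at -0.44 and an adjusted p of 0.0233, and without FGFBP1-CM replicate 1 it was -0.26 with an adjusted p of 0.158. It did not pass without Vector-CM replicate 1, 2 or 3, with edgeR adjusted p-values of 0.177, 0.223 and 0.250.

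MMP9 transcripts are abundant in neutrophils and macrophages, and the markers of these cells were low, the highest being CD14 with means of 2.32 and 2.57 CPM in the 2 groups. Of the 12 genes on that list 4 were tested and 0 passed at an unadjusted p under 0.05, where 21.7% of all tested genes did. With 4 genes tested, nothing is read from that count. Their summed level over the list was 4.92 to 6.14 CPM in the Vector-CM libraries and 4.96 to 7.59 CPM in FGFBP1-CM, and MPO, S100A8 and CD163 had 0 counts in all 6 libraries. Markers of colorectal epithelium, which could mark HCT116 cells carried over, summed to 6.004 to 8.02 CPM and 5.59 to 6.72 CPM, with 3 of 15 tested and 0 called. The highest was CDH17, at 3.55 and 2.99 CPM in the 2 groups. EPCAM averaged 0.585 and 0.484 CPM and CDH1 0.320 and 0.374 CPM, and neither was tested. CEACAM5, CEACAM6 and TFF3 were at 0 throughout. Which of these genes HCT116 expresses was not measured here. Hepatocyte markers did move with the group. All 6 tested of 15 were lower in FGFBP1-CM, 4 of them called (APOB, ALB, AFP and FGA), where 0.0658% of all tested genes were called lower. The called genes had few counts. APOB had 57, 41 and 59 in Vector-CM and 4, 7 and 3 in FGFBP1-CM, and FGA had 14, 13 and 16 against 1, 2 and 0. The hepatocyte list summed to 42.4 to 45.5 CPM in the Vector-CM libraries and 18.7 to 28.5 CPM in FGFBP1-CM. The stellate list summed to 3338 to 3573 CPM against 2578 to 3127 CPM, with 15 of 18 tested, 13 below 0 and 0 called. At an unadjusted p under 0.05, 0 stellate genes were higher and 5 lower (11.1% and 10.7% of all tested genes). The endothelial list summed to 145 to 160 CPM against 125 to 140 CPM, with 5 of 7 tested and 0 called. Single genes held most of these 3 sums. In Vector-CM and FGFBP1-CM, endothelial TIE1 averaged 139 and 118 CPM, and PECAM1 only 2.79 and 2.37 CPM. Stellate VIM averaged 2591 and 2160 CPM, and the hepatocyte gene SERPINA1, not called, 29.6 and 20.7 CPM. The part of all these marker genes in the MMP and TIMP values was not tested.

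**Figure D2:**
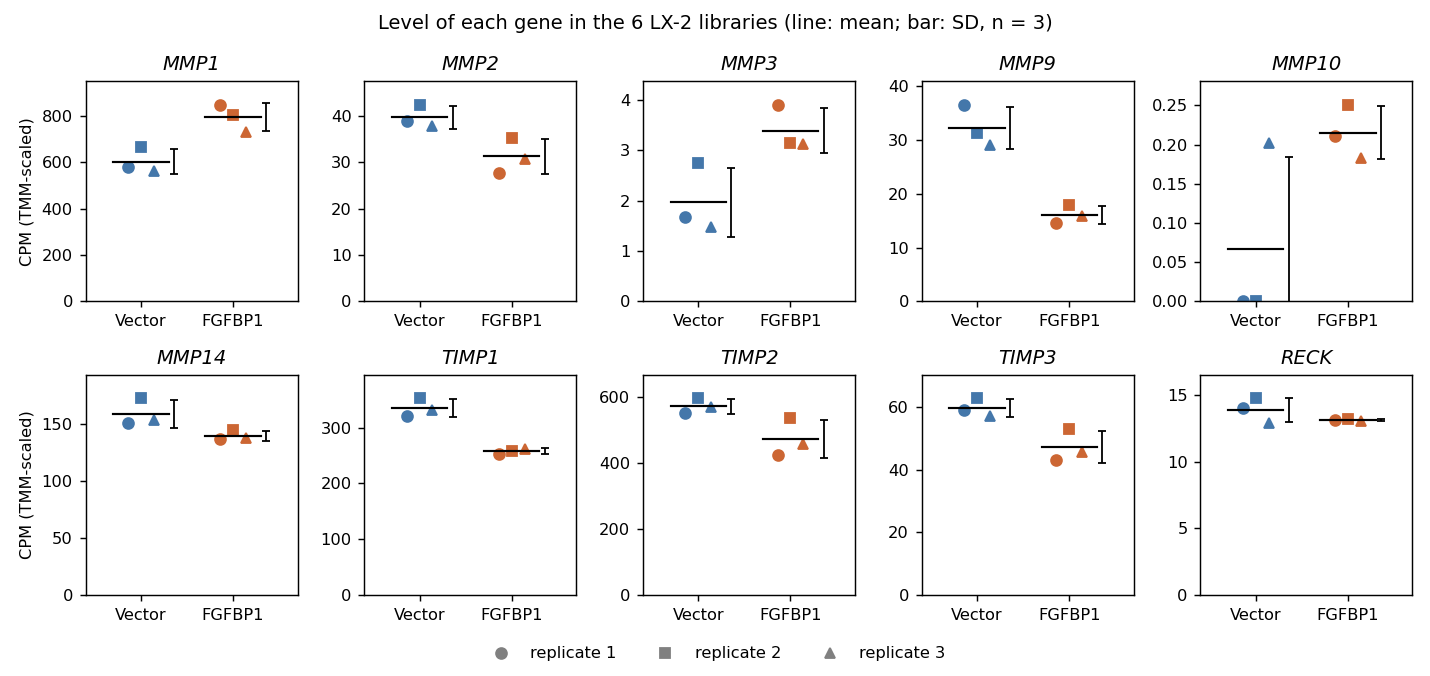
Level of each member in CPM (vertical axis, linear from 0) in the 3 Vector-CM and the 3 FGFBP1-CM libraries, with points for libraries and mean and SD per group. MMP9 and TIMP1 separate downwards, MMP1 and MMP3 upwards, and RECK overlaps.

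MMP1, the interstitial collagenase that cuts intact fibrillar collagen, went the other way from MMP9 in these libraries. It measured 581, 665 and 565 CPM in the Vector-CM libraries and 849, 804 and 729 CPM in FGFBP1-CM. No FGFBP1-CM library reached down to the Vector-CM range, and replicate 1 was the highest. The means were 603 ± 54.0 and 794 ± 60.7 CPM, a log2 fold change of 0.40 (SE 0.0798, 95% interval 0.22 to 0.57). The edgeR adjusted p of 0.0568 was above the threshold. MMP1 passed in 6 of 16 alternative fits, among them those without FGFBP1-CM replicate 2 (0.39, adjusted p = 0.0335) and without FGFBP1-CM replicate 3 (0.45, adjusted p = 0.0233), and it stayed above 0 in all 16. Without FGFBP1-CM replicate 1 the log2 fold change was 0.35 (adjusted p = 0.0548). Without Vector-CM replicate 1, 2 or 3 it was 0.37, 0.47 and 0.35, with edgeR adjusted p-values of 0.152, 0.156 and 0.242.

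The stromelysins cut proteoglycans and non-fibrillar matrix proteins and can activate other MMP precursors. MMP3 had few counts, 30, 38 and 22 in Vector-CM and 74, 50 and 51 in FGFBP1-CM, or 1.67, 2.75 and 1.48 CPM against 3.90, 3.14 and 3.12 CPM. The FGFBP1-CM libraries were all higher, with Vector-CM replicate 2 nearest to them. At a log2 fold change of 0.80 (SE 0.239, 95% interval 0.29 to 1.32) the edgeR adjusted p was 0.0961, above the threshold, and without FGFBP1-CM replicate 1 the values were 0.69 and 0.208. MMP10 had 0, 0 and 3 counts in Vector-CM and 4, 4 and 3 in FGFBP1-CM and was not tested. The ratio of its summed counts, 11 against 3, was 3.33 with a 95% counting interval of 0.881 to 18.6, so no difference was detectable at this depth. That interval covers counting error only.

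MMP14 is the membrane-type MMP that activates the MMP2 precursor with TIMP2 as its docking partner. It measured 150, 172 and 153 CPM in the Vector-CM libraries and 137, 144 and 138 CPM in FGFBP1-CM. The groups did not overlap, with Vector-CM replicate 2 standing above the rest. The log2 fold change of -0.18 (SE 0.0684) had an edgeR adjusted p of 0.149 and was not called in any of the 16 alternatives, with -0.17 and 0.284 without FGFBP1-CM replicate 1.

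Of the inhibitors, TIMP1, which also binds the MMP9 precursor, was at 320, 352 and 332 CPM in the Vector-CM libraries and 253, 258 and 262 CPM in FGFBP1-CM. Its FGFBP1-CM libraries were close together and all well below the Vector-CM libraries. The means were 335 ± 16.2 and 258 ± 4.53 CPM, a log2 fold change of -0.38 (SE 0.0623, 95% interval -0.51 to -0.24, edgeR adjusted p = 0.0465). That call lay close to the threshold and held in 8 of 16 alternatives. Without Vector-CM replicate 1, 2 or 3 the log2 fold change was -0.40, -0.34 and -0.38 with adjusted p-values of 0.0762, 0.176 and 0.242, and without FGFBP1-CM replicate 1 it was -0.36 with 0.0257.

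TIMP2, the inhibitor that links MMP14 to the MMP2 precursor, was at 551, 596 and 569 CPM in the Vector-CM libraries and 424, 537 and 457 CPM in FGFBP1-CM. TIMP3, which is held in the matrix and also inhibits several ADAM proteases, was at 59.0, 62.7 and 57.3 CPM against 43.0, 52.9 and 45.6 CPM. In both genes all FGFBP1-CM libraries were lower, replicate 1 lowest and replicate 2 nearest to Vector-CM. The log2 fold changes were -0.28 (SE 0.0827) for TIMP2 and -0.34 (SE 0.0831) for TIMP3, with edgeR adjusted p-values of 0.0976 and 0.0680. Without FGFBP1-CM replicate 2 they were -0.38 and -0.43, and both passed, with adjusted p-values of 0.0172 and 0.0153. Without FGFBP1-CM replicate 1 they were -0.20 and -0.27, with adjusted p-values of 0.216 and 0.114. Neither passed without Vector-CM replicate 1, 2 or 3, with edgeR adjusted p-values between 0.167 and 0.277. RECK was at 14.01, 14.8 and 12.9 CPM against 13.1, 13.2 and 13.03 CPM. Its groups overlapped, and the log2 fold change of -0.08 had a 95% interval of -0.30 to 0.14 (edgeR adjusted p = 0.668), and it was -0.08 (adjusted p = 0.779) without FGFBP1-CM replicate 1.

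Levels of different genes were compared as FPKM, the fragment count scaled to gene length and library size. In Vector-CM the order of mean FPKM was TIMP1 (228 ± 10.7), MMP1 (217 ± 20.05), TIMP2 (100 ± 3.77), MMP14 (33.8 ± 2.57), MMP9 (13.6 ± 1.78), TIMP3 (12.8 ± 0.657), MMP2 (8.31 ± 0.542), RECK (2.46 ± 0.179), MMP3 (1.05 ± 0.365) and MMP10 (0.0374 ± 0.0647). TIMP1 and MMP1 overlapped in range, although TIMP1 was above MMP1 in 3 of 3 libraries, and MMP9 and TIMP3 overlapped too. The other neighbours did not. In FGFBP1-CM MMP1 stood first at 293 ± 24.9 FPKM and TIMP1 second at 180 ± 2.24 FPKM, without overlap. TIMP3, at 10.3 ± 1.00 FPKM, came before MMP9, at 6.96 ± 0.63 FPKM, and the range of MMP9 overlapped that of MMP2, at 6.69 ± 0.738 FPKM. The remaining members kept their places.

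**Figure D3:**
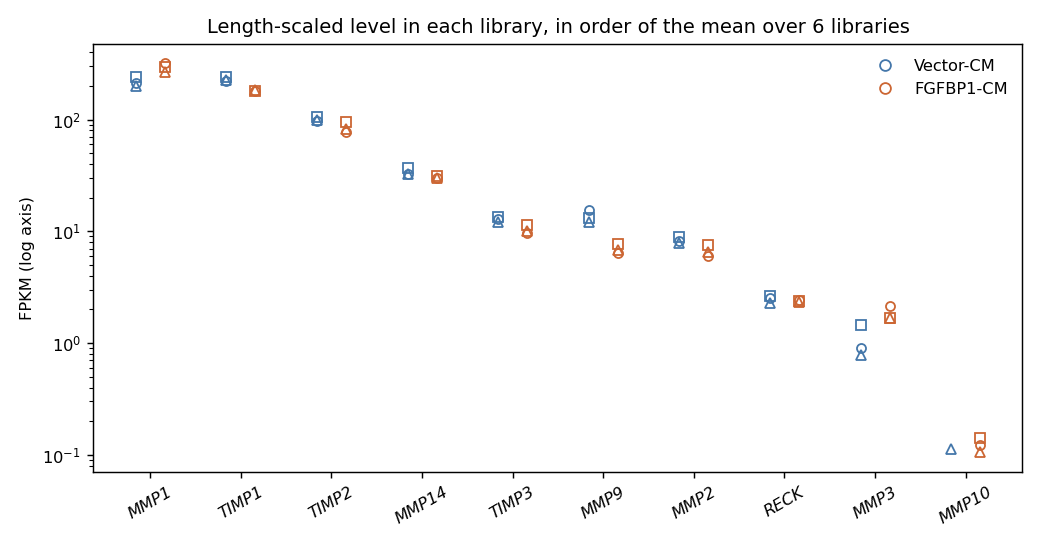
Level of the 10 members in FPKM on a log scale, ordered by mean, with points for the 3 Vector-CM and the 3 FGFBP1-CM libraries. MMP1 and TIMP1 lie between 178 and 318 FPKM in every library and MMP10 lies at the bottom, where 2 Vector-CM libraries at 0 have no point on the log axis.

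Since the enzymes act against their inhibitors, the FPKM ratios of some pairs were set out per library, as a description of transcripts and not of protein. MMP9 over TIMP1 was 0.0708, 0.0549 and 0.0542 in Vector-CM and 0.0357, 0.0429 and 0.0375 in FGFBP1-CM. MMP1 over TIMP1 was 0.957, 0.997 and 0.899 in Vector-CM and 1.77, 1.64 and 1.47 in FGFBP1-CM. Both ratios separated the groups, in opposite directions, so MMP9 was lower relative to TIMP1 while MMP1 was higher. MMP14 over TIMP2 averaged 0.337 ± 0.0130 and 0.362 ± 0.0329, and MMP2 over TIMP2 averaged 0.0829 ± 0.00312 and 0.0791 ± 0.00136. Those 2 ratios overlapped between groups. The size of each pair's ratio, though not its change between groups, rests on the gene lengths behind the deposited FPKM.

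Sums over the members, chosen after the values were seen, turned on MMP1. The 6 MMPs summed to 274 ± 23.5 FPKM in Vector-CM and 339 ± 24.9 FPKM in FGFBP1-CM, and the 3 TIMPs to 341 ± 15.0 and 275 ± 9.35 FPKM. The ratio of these sums was 0.811, 0.838 and 0.760 in Vector-CM and 1.36, 1.197 and 1.14 in FGFBP1-CM. MMP1 made up 79.2% of the MMP sum in Vector-CM and 86.4% in FGFBP1-CM. Without it the ratio was 0.173, 0.168 and 0.159 against 0.169, 0.169 and 0.165, and the groups overlapped. The sums and their ratios rest on the deposited gene lengths too.

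**Figure D4:**
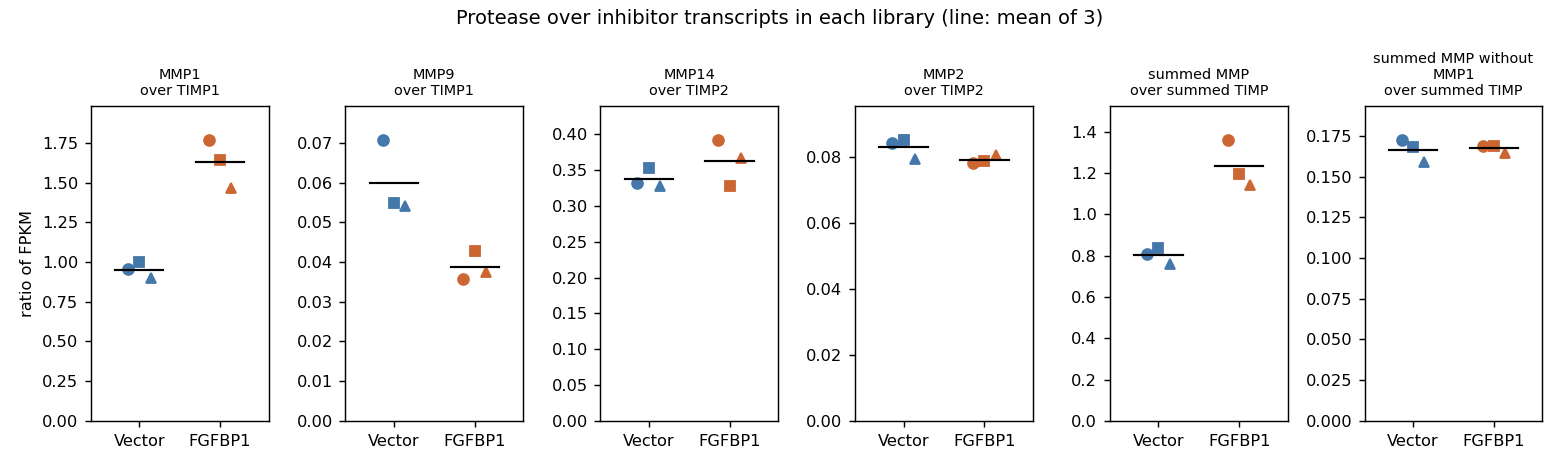
FPKM ratios of MMPs to TIMPs per library (vertical axes linear from 0), with points for libraries and a line at the mean of 3 per group, for 4 pairs and for the sums with and without MMP1. MMP9 over TIMP1 is lower and MMP1 over TIMP1 higher in FGFBP1-CM, while MMP14 and MMP2 over TIMP2 and the sums without MMP1 overlap.

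MMP1, MMP3 and MMP10 belong to a run of 9 MMP genes that covers 435 kb of chromosome 11. The other 6 were nearly silent, with 30 counts over the 6 libraries for MMP7, 20 for MMP12, 10 for MMP13, 6 for MMP8, 2 for MMP20 and 0 for MMP27. MMP10, 9.29 kb from MMP1, had 14 counts over the 6 libraries and MMP1 had 68801. The expressed genes on either side did not pass the threshold. TMEM123, BIRC2 and BIRC3 before the run had log2 fold changes of -0.18, -0.12 and -0.10. DCUN1D5 and DYNC2H1 after it had 0.18 and 0.24. Their edgeR adjusted p-values lay between 0.206 and 0.647. PDGFD after the run, with only 69 counts over the 6 libraries, was at -0.10 (edgeR adjusted p = 0.909).

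Genes annotated across the members held few counts of their own. SLC12A5-AS1, antisense to MMP9 over 430 exonic bases, had 9, 3 and 5 counts in Vector-CM and 8, 2 and 2 in FGFBP1-CM, against 431 to 656 and 260 to 285 for MMP9. WTAPP1, opposite to MMP1 and MMP3, had 19 counts in all, 11 of them in FGFBP1-CM replicate 1. CEP295NL, on the same strand as TIMP2 with 198 shared exonic bases, had 359. Whether counting used strand is not stated, so reads of such pairs cannot be assigned with certainty.

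GC content moved with the fold change over all genes, and MMP9 is rich in GC. Spearman's rho across 16401 genes was -0.215, a description since genes are not independent replicates, and the median log2 fold change went from 0.068 in the fifth of lowest GC content to -0.072 in the highest. MMP9 has 62.4% GC, MMP14 58.8%, TIMP1 58.0%, MMP2 55.8%, TIMP2 52.3% and TIMP3 48.7%. MMP3 has 44.9%, MMP10 and RECK 44.6% each and MMP1 43.4%. After a correction for GC content and length, MMP9 was at -0.96 (edgeR adjusted p = 0.00063), MMP1 at 0.34 (0.064) and TIMP1 at -0.32 (0.051), so the call of TIMP1 ended. MMP2 was then at -0.33, MMP14 at -0.15, TIMP2 at -0.28 and TIMP3 at -0.36. RECK was at -0.13 and MMP3 at 0.76, and none of these was called. The part of GC content in these values was not tested.

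The wider family and the machinery around these enzymes were followed in 4 lists, drawn up with earlier results known. None of their genes passed the threshold in the edgeR fit, where 0.120% of all tested genes did. Of the other MMP family genes 8 of 18 were tested, 0 higher and 2 lower at an unadjusted p under 0.05 (11.1% and 10.7% of all tested genes), with a median log2 fold change of -0.18. The 3 with the highest FPKM were MMP17 (-0.31, SE 0.120, adjusted p = 0.164), MMP15 (-0.14, adjusted p = 0.557) and MMP19 (-0.22, adjusted p = 0.391). TIMP4, MMP26 and MMP27 had 0 counts in all libraries.

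Plasmin, made from plasminogen by the activators PLAU and PLAT, can activate several MMP precursors. Of the 20 genes of plasminogen activation 14 were tested, 0 higher and 6 lower at an unadjusted p under 0.05 (all tested genes 11.1% and 10.7%), with a median of -0.18. ENO1 and ANXA2, which can act as plasminogen receptors, had log2 fold changes of -0.07 (edgeR adjusted p = 0.560) and -0.18 (adjusted p = 0.222). PLAT, chosen after its values were seen, was at -0.32 (adjusted p = 0.0969).

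Of 20 genes of MMP processing, docking and clearance 16 were tested, 0 higher and 7 lower at an unadjusted p under 0.05 (all tested genes 11.1% and 10.7%), with a median of -0.10. TFPI2, a protease inhibitor of the matrix, had a log2 fold change of -0.28 (SE 0.0810, edgeR adjusted p = 0.0929). CD44, a docking site for MMP9 at the cell surface, was at -0.04 (adjusted p = 0.743) and CAV1, the main protein of caveolae, at -0.07 (adjusted p = 0.666). THBS2, which takes part in the uptake of MMP2 and was chosen after its values were seen, was at -0.35 (adjusted p = 0.0568).

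All 24 transcription factors known from MMP promoters were tested, and 3 were higher and 8 lower at an unadjusted p under 0.05 (all tested genes 11.1% and 10.7%), with a median log2 fold change of -0.06. The AP-1 subunits FOSL1 and JUN were at 0.05 and -0.08 (edgeR adjusted p = 0.707 and 0.501), and ETS1 was at -0.12 (adjusted p = 0.301). FOS, chosen after its values were seen, was at 0.56 (adjusted p = 0.111) with a level of only 2.40 CPM in the Vector-CM libraries and 3.54 CPM in FGFBP1-CM. Chosen in the same way, the AP-1 subunit JUNB was lower, at -0.35 (adjusted p = 0.0961). STAT3, with the lowest adjusted p of the list, was at -0.25 (adjusted p = 0.0877).

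**Figure D5:**
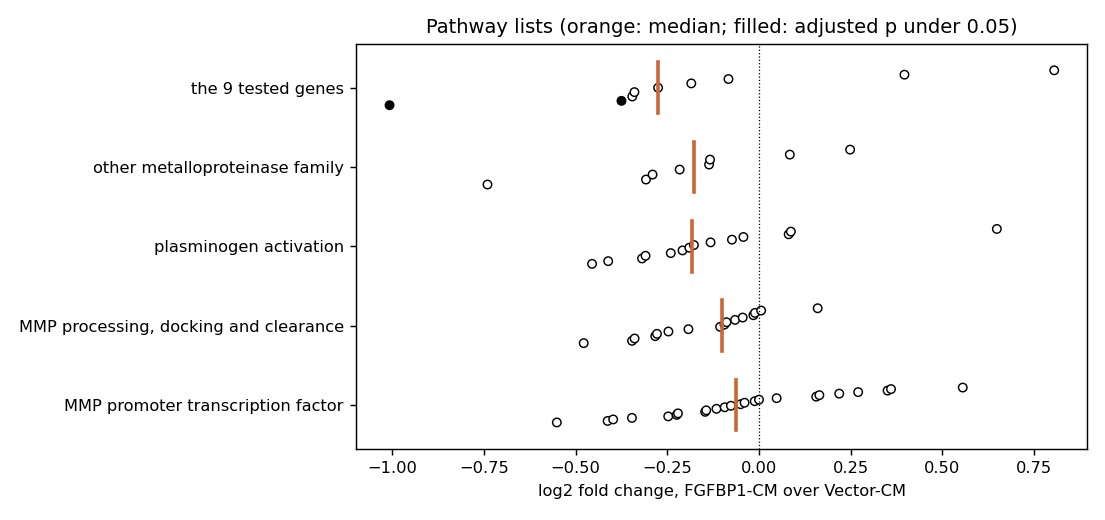
Log2 fold changes of the tested genes of the members and of the 4 lists, FGFBP1-CM against Vector-CM, each point a gene, filled where the adjusted p is under 0.05, with an orange bar at the median and a dotted line at 0. The list medians lie between -0.18 and -0.06 and that of the members at -0.28, and MMP9 and TIMP1 are the filled points.

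Genes with profiles most like that of MMP9 over the 6 libraries were found by the root mean square difference of centred log2(CPM + 0.5) values among 13750 genes. The 5 closest were KRT81, a hair keratin (0.159), ICAM5, an adhesion molecule (0.161), the pseudogene BTBD10P2 (0.176), CDKN1C, an inhibitor of cell cycle kinases (0.180), and HLA-F, a non-classical MHC class I gene (0.188), where the median gene differed by 0.519. For TIMP1 they were RGS12 (0.0338), CADM4 (0.0456), FSTL3 (0.0487), LRFN4 (0.0489) and ARID3B (0.0494), with a median of 0.224. A close profile here means mainly a like difference between the 2 groups and a like order within them.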

How the data were processed

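The authors aligned reads with HISAT2 2.0.5 and counted them per gene with featureCounts 1.5.0-p3, per the submitters' processing notes, and deposited raw counts. In the same table the authors deposited an FPKM value for each gene and library. The notes name the build hg18, while the table uses Ensembl identifiers, so GENCODE 29 coordinates need not be those of counting. Strandedness is not given in the sources used here, and both poly(A) selection and ribosomal RNA depletion are described. The deposited columns of the authors' own comparison (fold changes and p-values) were not used.

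Counts of Vector-CM and FGFBP1-CM were fitted with edgeR 4.0.16 in R 4.3.3 (filterByExpr, TMM, quasi-likelihood F-test), and p-values were adjusted over 16707 genes (Benjamini-Hochberg, threshold 0.05). The standard error was taken as the size of the log2 fold change over the square root of F. CPM values use TMM-scaled library sizes (scaling factors 0.978 to 1.03), and 3 counts correspond to between 0.158 and 0.217 CPM. The script was tested on simulated data. Alternatives were RLE scaling, library size only, other filters, DESeq2 1.42.0, limma 3.58.1 on log2(FPKM + 1) and log2(FPKM + 0.1), a GC and length correction, a replicate block, and leaving out each library.

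The members and lists were chosen with earlier results of these data known. All 10 members were named, and from each list the genes past the threshold (at most 4) and the 3 of highest mean FPKM. From the genes compared, the 5 closest in profile to MMP9 and to TIMP1 were named. A gene that this rule names is not reported here.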

Additional observations from a re-analysis of the deposited data

Results flagged for a closer look

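The FPKM of MMP14 over the 6 libraries had 1 high value, in Vector-CM replicate 2 at 36.8 FPKM, while the other 5 lay between 29.9 and 32.4 FPKM. The gap was 0.644 of the whole range, past Dixon's 95% critical value for 6 values. Chance alone gives such a gap in about 1 of 20 groups, and the 6 libraries span both media.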

How the results depend on the processing

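Over 16 alternatives no log2 fold change of a member changed sign (143 values, of which 116 stayed on the same side of the threshold, 10 lost the call and 17 gained it; DESeq2 gave no adjusted p for MMP3). The call of MMP9 held in 14 of 16 and that of TIMP1 in 8. Against 2 members called, there were 6 by DESeq2, 7 with no filter beyond 1 count, 1 each with the GC and length correction, with library size only and with a mean of at least 1 CPM, and 0 by limma with either pseudocount. Leaving out 1 library gave 1 to 6, with MMP9 alone called without any one Vector-CM library and 6 called without FGFBP1-CM replicate 2. Over all genes the 20 calls became 616 by DESeq2, 1382 with no filter beyond 1 count, 38 with RLE scaling, 47 with the GC and length correction, 11 with a mean of at least 1 CPM, and 1 by limma with either pseudocount, and ranged from 4 to 883 with 1 library left out. Plasminogen activation went from 0 calls to 3 by DESeq2 and 3 with no filter (0 to 3 without 1 library), processing, docking and clearance from 0 to 3 and 4 (0 to 4), and the transcription factors from 0 to 2 and 4 (0 to 2). The other family members had 0 calls in every alternative. In the fit with no filter beyond 1 count, edgeR drew each gene's spread fully to the common trend (prior degrees of freedom infinite, 9.32 in the main fit). Its adjusted p-values thus take no account of how far a single gene varied around that trend. That fit is among the 16 alternatives counted for each member. By CPM in place of FPKM, 6 of 10 members kept their place in the order of levels. The cause of these differences was not tested.

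Same-numbered libraries were not shown to be paired (correlations of their deviations -0.137, -0.0178 and 0.161 over 15033 genes). With the replicate block 90 genes were called, among them 3 members (MMP1, MMP9 and TIMP1) and 1 gene of plasminogen activation. With the block and the GC and length correction 231 genes were called, among them 4 members, 2 genes of plasminogen activation and 1 of processing, docking and clearance. Depth limits MMP10 and MMP3, the members with the fewest counts.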
